A study of Mus musculus with 2 samples.

Results

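The genes described here are the SoxC genes Sox4, Sox11 and Sox12, the SoxD genes Sox5, Sox6 and Sox13, the SoxE genes Sox8, Sox9 and Sox10, and the SoxF gene Sox17. They were taken by symbol from the gene name column of the arrays, which gave 10 genes of 33008 gene names and 25 probes of 56589. Expression was measured in KO-Linc1548 cells (1 array), labelled as a knockout of the long intergenic non-coding RNA Linc1548, and in WT cells (1 array). Both samples were taken at day 5 of neural differentiation. Both come from a single mouse embryonic stem cell line, in which GFP reports on Sox1 expression, and in both groups the cells were aggregated in low-adhesion dishes in medium with knockout serum replacement. The comparison asks how loss of Linc1548 bears on the step from epiblast-like cells to neural progenitors. The labels used here do not say how the knockout was made or how many clones it comes from, and no probe names Linc1548 (0 probes), so the genotype labels were not checked against the targeted RNA.

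Sox proteins bind DNA through a high-mobility-group box and are grouped by sequence likeness. SoxC proteins are activators that act in newly formed neurons and in many embryonic progenitors, while SoxD proteins lack an activation domain of their own and pair through a coiled coil to assist or oppose other Sox proteins. SoxE proteins act in neural stem cells, glia, neural crest and cartilage, and Sox17 acts in endoderm and endothelium. SoxB1 proteins, among them the pluripotency and neural factor Sox2, precede SoxC proteins in the neural lineage.

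With 1 array per group there is no replicate check, no difference was tested, and differences of culture, clone and array position cannot be told apart from genotype. The arrays shared 1 slide and 1 scan. Signals are processed spot intensities scaled to a common 75th percentile, and the value after each ± is the scanner software's own error of that 1 spot, not a spread between samples. A probe counted as measured where the software called it well above background on both arrays, as for 31536 probes. Each gene was given the median log2 difference of its measured probes, KO-Linc1548 minus WT, and a limit of 2-fold (1 on the log2 scale) was applied. Centring on the spike-in controls would shift every log2 difference by −0.39, so a difference between 0 and 0.39 turns its sign under that scaling. Where a probe was well above background on 1 array alone, a lower bound of the fold was taken. Such a bound can only run towards lower on the dim array, so its direction adds no support to that of a measured probe. Probe positions are those of the files, on mouse build mm9. Fewer probes were well above background on the KO-Linc1548 array alone (1595, or 2.82%) than on the WT array alone (3217, or 5.68%). Probes printed in several spots varied between spots with a pooled SD of 0.070 on the log2 scale on the KO-Linc1548 array and 0.065 on the WT array (298 probes).

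Sox9, Sox6 and Sox11 had lower signals in KO-Linc1548 cells, Sox4 lay just past the 2-fold limit, and Sox12, Sox10 and Sox17 had nearly equal signals on both arrays. With 9 of the 10 genes measured on both arrays, 4 lay past the limit on the lower side in KO-Linc1548 cells, 0 on the higher side and 5 within it. Across the array, 8.81% of the 18690 genes measured lay past the limit on the lower side and 11.5% on the higher side. The median log2 difference was −0.64 over the 9 genes and 0.10 over all genes measured. Sox8, the tenth gene, was well above background in WT cells alone, with a bound of at least 3.03-fold lower in KO-Linc1548 cells. Such genes were common: of 1610 genes known from the WT array alone, 23.5% had a bound of at least 2-fold. Of the 25 probes, 12 were measured on both arrays, 0 were well above background on the KO-Linc1548 array alone, 8 on the WT array alone and 5 on neither.

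**Figure D1:**
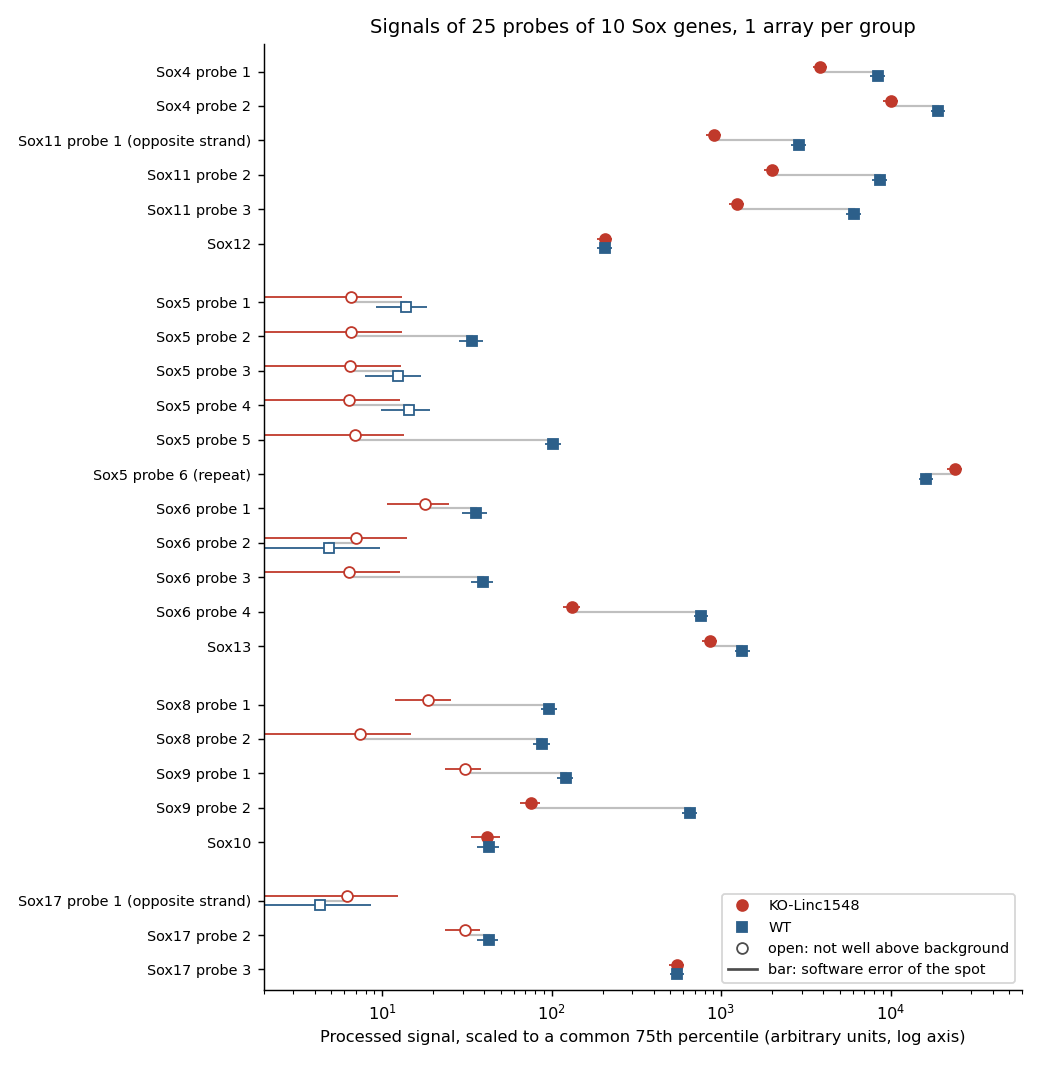
Scaled processed signal (logarithmic axis) of each of the 25 probes, with KO-Linc1548 drawn above WT and the scanner software's error of the spot as the bar; probes of a gene are numbered along the gene's strand. The probes of Sox11, Sox6 and Sox9 measured on both arrays lie lower on the KO-Linc1548 array, while the brightest Sox17 probe and the Sox12 and Sox10 probes overlap between the arrays.

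In the SoxC subgroup, Sox11 had the larger difference. This gene, which acts in immature neurons downstream of proneural factors, has probes within chr12:28019541-28023351. Its probe nearest the 3′ end (chr12:28019541-28019600) gave a signal of 1245 ± 125 in KO-Linc1548 cells, against 6065 ± 607 in WT cells, a 4.87-fold lower signal. The next probe, 546 bases away (chr12:28020087-28020146), gave 2001 ± 200 in KO-Linc1548 cells and 8690 ± 869 in WT cells (4.34-fold lower). Both probes therefore read the same direction at a similar size. A further probe (chr12:28023292-28023351), placed by the files on the strand opposite to Sox11, gave 907 ± 90.9 in KO-Linc1548 cells and 2892 ± 289 in WT cells (3.19-fold lower). Which transcript that probe reads was not tested. The log2 differences of the 3 probes were −2.28, −2.12 and −1.67, so the gene's value was −2.12, and 2.00% of all genes measured had a lower one. Without the opposite-strand probe it was −2.20.

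Sox4, which shares many roles with Sox11 in neuronal and other progenitors, lay at the 2-fold limit. Its probe nearer the 5′ end (chr13:29042856-29042915) gave 3853 ± 385 in KO-Linc1548 cells, against 8457 ± 846 in WT cells (2.19-fold lower). The probe 2030 bases further towards the 3′ end (chr13:29040826-29040885) gave 10028 ± 1003 in KO-Linc1548 cells, against 19124 ± 1912 in WT cells (1.91-fold lower). Both probes were lower in KO-Linc1548 cells, on either side of the limit, and the software's errors give each log2 difference a standard error of 0.20, which covers measurement of the spots alone. The gene's log2 difference was −1.03, and 8.33% of all genes measured had a lower one, close to the 8.81% that lay past the limit. Whether Sox4 is counted as past the limit depends on how its probes are combined: with the brightest probe alone the log2 difference was −0.93.

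Sox12, a weaker activator that overlaps in function with the other SoxC proteins, had nearly equal signals. Its single probe (chr2:152220036-152220095) gave 206 ± 21.6 in KO-Linc1548 cells and 207 ± 21.1 in WT cells. The signals differed by less than their errors, and the sign of the log2 difference, between −0.39 and 0.09, depended on the scaling and background correction. Over the 3 SoxC genes the median log2 difference was −1.03, and 2 of 3 genes were past the 2-fold limit.

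Most genes known to act upstream of SoxC proteins in neurons had larger folds. Of 12 listed proneural and early neurogenic genes, 7 were measured on both arrays, and 6 of these lay past the limit on the lower side and 0 on the higher side, with a median log2 difference of −3.17. Insm1, a zinc finger factor of newborn neurons, had a signal of 260 in KO-Linc1548 cells and 8641 in WT cells, and Myt1, another zinc finger factor of early neurons, 87.8 in KO-Linc1548 cells and 2578 in WT cells. The smallest differences of the list were those of Hes6 (log2 difference −0.76) and of the Notch ligand Dll3 (−2.14). Another 4 genes of the list were well above background in WT cells alone, among them the bHLH factors Neurod4, with a bound of at least 12.2-fold lower, and Neurog2, at least 10.8-fold lower. Of the 14 listed neuronal genes, which include reported SoxC targets such as Tubb3, all 14 were measured, with 11 past the limit on the lower side and 0 on the higher side (median −1.98). The LIM factor Isl1 was 30.2-fold lower and the microtubule-binding gene Dcx 21.2-fold lower, whereas the tubulin-binding genes Stmn1 and Stmn2 had log2 differences of −0.35 and 0.21. Isl1 and Dcx were each measured by 1 probe, which read 59.5 and 64.0 in KO-Linc1548 cells. Neither passes the stricter filter on dim probes, a signal of at least 100 on both arrays. That filter left 12 neuronal genes, 8 past the limit on the lower side, and 4 proneural genes, 3 past it. Sox11 and Sox4 thus had smaller fold differences than the median proneural gene, while Sox11 lay near the neuronal median.

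Markers of cell types also differed between the arrays, and their part in the Sox differences was not tested. Of 12 neural progenitor markers, 10 lay past the limit on the lower side in KO-Linc1548 cells and 0 on the higher side (median −2.50), and their signals, summed over the median of each gene's measured probes, came to 16862 in KO-Linc1548 cells and 146229.7 in WT cells. Of 12 pluripotency markers, 11 lay past it on the higher side and 0 on the lower side (median 3.16), with sums of 119349.5 in KO-Linc1548 cells and 16065 in WT cells. All 12 markers of each list were well above background on both arrays, so neither list was absent from either culture. The neuronal list summed to 88640.02 in KO-Linc1548 cells and 137378 in WT cells, with all 14 genes well above background on both arrays. Each sum is weighted towards the brightest probes of its list, such as that of Hes5 (42257 in WT cells), and is not an amount of a cell type. In RNA from whole cultures, fewer cells of a type and less RNA per cell cannot be told apart.

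In the SoxD subgroup, Sox6 was lower in KO-Linc1548 cells. Sox6, which acts in the timing of neural cell maturation and works with Sox5 and Sox9 in cartilage, was measured by 1 of its 4 probes. That probe (chr7:122614402-122614461) gave 132 ± 14.6 in KO-Linc1548 cells and 765 ± 76.6 in WT cells, a log2 difference of −2.53 (5.78-fold lower) with a software error of 0.22. Only 1.23% of all genes measured had a lower value. The probe at chr7:122615418-122615477 read 6.40 in KO-Linc1548 cells, a value substituted by the scanner software for a dim spot. It read 39.3 ± 5.87 in WT cells, a bound of at least 1.29-fold lower. The probe at chr7:122685210-122685269 read 17.8 ± 7.07 in KO-Linc1548 cells, not well above background, and 35.7 ± 5.99 in WT cells (at least 1.17-fold lower). Both bounds stay below 2-fold, and the WT signals behind them were close to background. The remaining probe was not well above background on either array. The probe at chr7:122685210-122685269 is shown, 5′ to 3′, as an ordinary sequence to set beside the Sox5 repeat given further on.
Sox6 probe: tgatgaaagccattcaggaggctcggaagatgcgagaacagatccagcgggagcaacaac

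Sox13, the SoxD gene known chiefly from T cells and the embryonic nervous system, had 1 probe (chr1:135279099-135279158) with a signal of 857 ± 85.9 in KO-Linc1548 cells and 1338 ± 134 in WT cells. It was 1.56-fold lower (log2 difference −0.64, software error 0.20), within the 2-fold limit, and 15.2% of all genes measured had a lower value. With centring on the spike-in controls, which moved every probe by −0.39, its log2 difference was −1.03.

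Sox5, which acts in cartilage and in the timing of neuron production, was measured on both arrays by a repeat probe alone. That probe, 1 of 6 for the gene, gave 24020 ± 2402 in KO-Linc1548 cells and 16246 ± 1625 in WT cells (1.48-fold higher, log2 difference 0.56). It is a purine repeat with 16 GGA triplets, and the files place it at 27 bases (chr6:143776945-143776971) although it is 60 bases long. It shares a run of 20 bases with 9 probes of other genes, whereas the other 24 probes of the 10 Sox genes share such a run with 0 probes of other genes. The first 30 bases of the Sox5 probe are set beside those of repeat probes named Cplx2 and Vash1, with the GGA triplets in capitals.
Sox5 repeat probe: GGAGGAGGAGGAagaGGAGGAGGAGGAaga
Cplx2 repeat probe: aGGAGGAGGAGGAGGAGGAGGAGGAGGAGG
Vash1 repeat probe: gaGGAGGAGGAGGAGGAGGAGGAGGAGGAG
The 6 other probes with at least 12 GGA triplets, which name unrelated genes, read 13073 to 32509 in KO-Linc1548 cells and 9639 to 23925 in WT cells, with log2 differences of 0.30 to 0.55. The Sox5 repeat probe thus had signals within the range of these repeat probes, and its difference lay just above theirs. The other Sox5 probes read differently. The probe at chr6:143777579-143777638 gave 6.96 ± 6.50 in KO-Linc1548 cells, not well above background, and 102 ± 11.1 in WT cells, a bound of at least 3.36-fold lower. The probe at chr6:143855538-143855597 gave 6.58 in KO-Linc1548 cells, a value substituted by the scanner software for a dim spot. It gave 33.9 ± 5.61 in WT cells (at least 1.11-fold lower). The remaining 3 probes were not well above background on either array. Without the repeat probe Sox5 was not measured on both arrays. With all 6 probes its log2 difference was −1.13, the opposite direction. That median comes from the probes at chr6:143781520-143781579 and chr6:144053443-144053502, not well above background on either array. Their KO-Linc1548 values were substituted by the scanner software, so −1.13 compares values at the floor and gives Sox5 no direction. Over the 3 SoxD genes, 1 was past the 2-fold limit and the median was −0.64, both counted with the repeat probe. Without it, the median over Sox6 and Sox13 was −1.59.

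**Figure D2:**
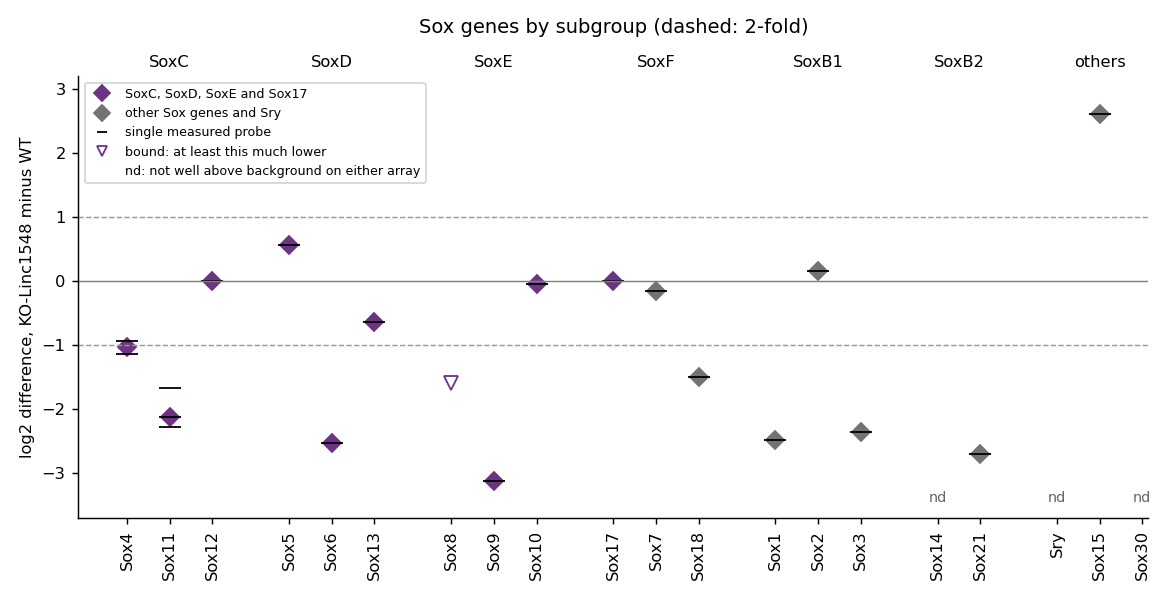
Log2 difference (KO-Linc1548 minus WT) of the Sox genes by subgroup, with diamonds for genes, short dashes for single measured probes, an open triangle for the Sox8 bound, nd for genes not well above background and dashed lines at 2-fold. Sox9 (−3.13), Sox6 (−2.53) and Sox11 (−2.12) lie far below 0, Sox12, Sox10 and Sox17 lie at 0, and Sox15 (2.62) is the only Sox gene past the limit in the other direction.

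In the SoxE subgroup, Sox9 had the lowest value of the 9 genes measured on both arrays. With no filter on dim probes, which gives all 10 genes a value, Sox8 (−2.97) lay below Sox9 (−2.55). The Sox8 value then rests on KO-Linc1548 values not well above background, including a value substituted by the scanner software, so that order is not settled. Sox9 maintains neural stem cells, begins gliogenesis and drives cartilage formation. Its 3′ probe (chr11:112647560-112647619) gave 75.4 ± 10.4 in KO-Linc1548 cells, against 658 ± 66.0 in WT cells, a log2 difference of −3.13 (8.73-fold lower) with a software error of 0.25. The other probe, 918 bases nearer the 5′ end (chr11:112646642-112646701), gave 30.9 ± 7.26 in KO-Linc1548 cells, not well above background, and 121 ± 12.9 in WT cells, a bound of at least 3.91-fold lower. Of all genes measured, 0.589% had a lower value than Sox9. The size depended on the background correction, with a log2 difference of −2.23 after normexp correction. With the stricter filter on dim probes, which asks for a signal of at least 100 on both arrays, Sox9 had no value.

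Sox8, which overlaps with Sox9 and Sox10 in glia and neural crest, had no signal well above background in KO-Linc1548 cells. The probe at chr17:25705869-25705928 gave 18.8 ± 6.85 in KO-Linc1548 cells and 97.0 ± 10.6 in WT cells (at least 3.18-fold lower). The probe 2775 bases away (chr17:25703094-25703153) gave 87.8 ± 10.1 in WT cells (at least 2.88-fold lower). Its KO-Linc1548 value of 7.44 was substituted by the scanner software for a dim spot and is not a measured signal. Both bounds divide a WT signal by the same lowest level of the KO-Linc1548 array, so their likeness restates the similar WT signals alone. Neither probe is a repeat. The sequences of the Sox9 and Sox8 probes nearer the 5′ end of each gene, which give bounds alone, are printed 5′ to 3′.
Sox9 probe: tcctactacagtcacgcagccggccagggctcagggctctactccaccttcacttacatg
Sox8 probe: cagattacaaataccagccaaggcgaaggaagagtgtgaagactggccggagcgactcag

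Sox10, the SoxE gene of migrating neural crest, Schwann cells and oligodendrocytes, was close to background on both arrays. Its probe (chr15:78985343-78985402) gave 41.6 ± 8.01 in KO-Linc1548 cells and 42.8 ± 6.54 in WT cells. The log2 difference of −0.04 had a software error of 0.35, and its sign depended on the setting, between −0.43 with spike-in centring and 0.20 with normexp correction. Of the 3 SoxE genes, then, Sox9 was past the limit, Sox8 was known by a bound, and Sox10 was not separated between the arrays at this signal over background. The median over Sox9 and Sox10 was −1.58, or −1.02 with normexp correction and −2.55 over all 3 genes with no filter.

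Genes of the tissues in which SoxE proteins act were measured beside them. Of 14 glial genes, 8 were measured, with 2 past the limit on the higher side in KO-Linc1548 cells, 0 on the lower side and a median of −0.05, which ranged from −0.44 to 0.44 over the ways of processing and so has no settled sign. The nuclear factor Nfib (log2 difference 1.50) and the folate enzyme gene Aldh1l1 (1.18) were highest, the receptor gene Pdgfra and the myelin gene Mbp (both −0.48) were lowest. The proteoglycan gene Cspg4 was well above background in KO-Linc1548 cells alone, at least 2.06-fold higher, and the gliogenic factors Nfia and Olig2 in WT cells alone, with bounds of at least 2.85-fold and 3.03-fold lower in KO-Linc1548 cells. All 16 neural crest genes were measured, with 2 past the limit on the higher side and 6 on the lower side (median −0.33, ranging from −0.72 to −0.20 over the ways of processing). Foxd3, a winged-helix factor of both crest and pluripotent cells, had a signal of 949 in KO-Linc1548 cells and 109 in WT cells, and Erbb3, a neuregulin receptor, 1367 in KO-Linc1548 cells and 359 in WT cells. The endothelin receptor gene Ednrb was 14.6-fold lower.

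Cartilage genes, many of them direct targets of Sox9 with Sox5 and Sox6, lay on both sides of 0. Of 11 on the array, 8 were measured, with 1 past the limit on the higher side in KO-Linc1548 cells, 3 on the lower side and a median of −0.40. That median was −1.53 with the stricter filter on dim probes, which left 4 genes, and −0.02 with normexp correction. The collagen genes Col9a1 and Col2a1 were 3.16-fold and 2.69-fold lower, while Col9a2 was 2.31-fold higher and the matrix gene Comp had a log2 difference of 0.87. The aggrecan gene Acan and the matrilin gene Matn1 were well above background in KO-Linc1548 cells alone, at least 4.78-fold and 2.11-fold higher.

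Sox17, which specifies endoderm and is also expressed in endothelium, showed no separation between the arrays. Its measured probe (chr1:4481890-4481949) gave 552 ± 55.7 in KO-Linc1548 cells and 552 ± 55.5 in WT cells, with a software error of 0.21 on the log2 difference. The sign of that difference varied between −0.39 and 0.07 over the settings. A further probe, which the files place over 491 bases (chr1:4482700-4483190) and which therefore skips 431 bases of the genome, gave 30.7 ± 7.17 in KO-Linc1548 cells, not well above background, and 42.5 ± 6.08 in WT cells, a bound of at least 1.39-fold lower. Both probes are shown, 5′ to 3′, because they differ in what they could show: one was far above background and the other at its edge.
Sox17 measured probe: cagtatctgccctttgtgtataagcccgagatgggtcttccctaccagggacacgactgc
Sox17 probe over a gap: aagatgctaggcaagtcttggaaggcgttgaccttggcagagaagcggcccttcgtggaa
A probe on the strand opposite to Sox17 (chr1:4487611-4487670) was not well above background on either array.

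Around this level signal of Sox17, endoderm genes lay on both sides. Of 19 listed, 18 were measured, with 9 past the limit on the higher side in KO-Linc1548 cells and 4 on the lower side (median 0.70, ranging from 0.32 to 1.03). Eomes, a T-box factor of mesendoderm, had a signal of 831 in KO-Linc1548 cells and 89.1 in WT cells, and the apolipoprotein gene Apob 297 in KO-Linc1548 cells and 79.5 in WT cells. Foxa1, a forkhead factor of endoderm that ventral neural tissue also expresses, had 425 in KO-Linc1548 cells and 3817 in WT cells, and the chemokine receptor gene Cxcr4 163 in KO-Linc1548 cells and 842 in WT cells. Of 12 endothelial genes, 8 were measured, with 3 past it on the higher side and 1 on the lower side (median 0.81, ranging from 0.43 to 0.83). That list holds Sox7 and Sox18, which are counted again among the other Sox genes, and its gene on the lower side was Sox18. The co-receptor gene Eng was 6.18-fold higher and the receptor gene Tek 4.30-fold higher, while Emcn was well above background in WT cells alone (at least 2.82-fold lower). Eng and Tek read 43.1 and 25.0 in WT cells, where the lowest signal called well above background was 21.3. Neither gene passes the stricter filter on dim probes, which left 3 endothelial genes, 1 of them past the limit on the higher side. Of 10 mesoderm markers, 6 were measured, with 1 past it on the higher side and 2 on the lower side, and their median of −0.58 varied in sign between −0.97 and 0.30. Tcf15, a bHLH factor of somites that epiblast cells also express, was 11.5-fold higher, whereas the forkhead factor Foxc1 was 2.67-fold lower and the T-box factor Tbx1 2.62-fold lower. With normexp correction, 0 of the 6 mesoderm markers were past the limit on the lower side, so Foxc1 and Tbx1 lay inside it.

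**Figure D3:**
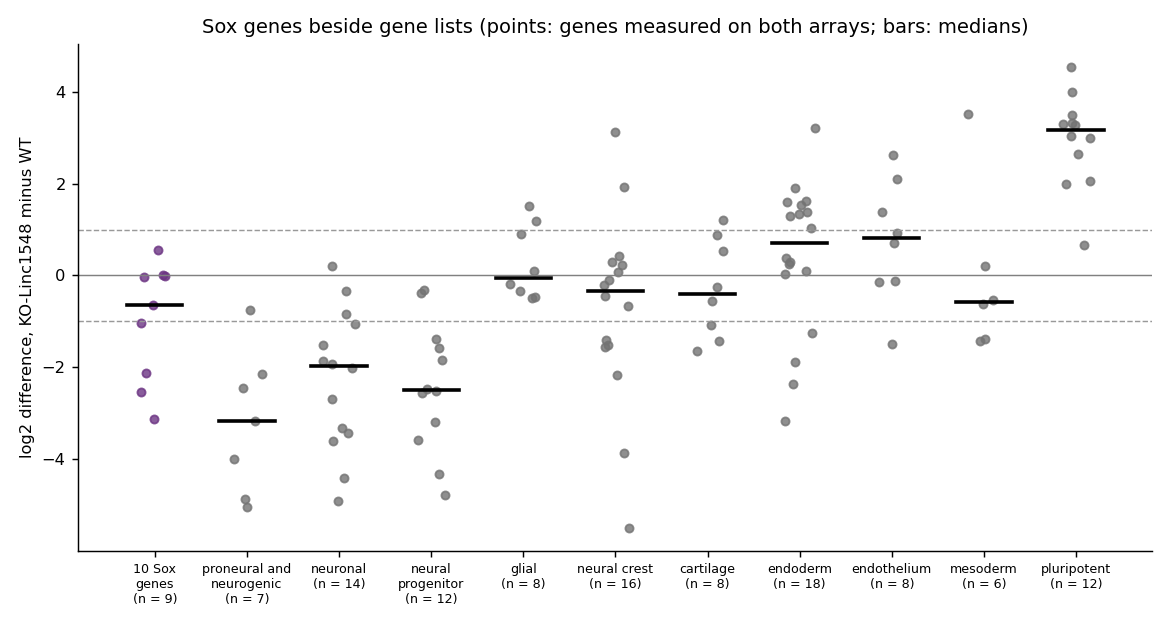
Log2 difference (KO-Linc1548 minus WT) of each measured gene of the context lists, with the median of each list and the limits of 2-fold. Pluripotency genes lie above 0 (median 3.16), proneural (−3.17), neural progenitor (−2.50) and neuronal genes (−1.98) mostly below it, and the glial, crest, cartilage, endoderm, endothelium and mesoderm lists spread over both sides.

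Among the other 10 Sox genes on the array, 7 were measured, with 4 past the limit on the lower side in KO-Linc1548 cells, 1 on the higher side and 2 within it (median −1.50). The median ranged from −1.89 with spike-in centring to −0.00052 with no filter on dim probes, which adds 3 genes not above background. The neural SoxB genes stood beside Sox11 and Sox9: Sox1 had a signal of 442 ± 44.7 in KO-Linc1548 cells and 2474 ± 247 in WT cells (5.60-fold lower). Sox3 had 3455 in KO-Linc1548 cells and 17759 in WT cells (5.14-fold lower), and Sox21, a SoxB2 repressor, had 1091 in KO-Linc1548 cells and 7135 in WT cells (6.54-fold lower). Sox2, by contrast, had 15908 in KO-Linc1548 cells and 14336 in WT cells, a log2 difference of 0.15 that was −0.24 with spike-in centring. Of the SoxF genes related to Sox17, Sox7 had 104 in KO-Linc1548 cells and 115 in WT cells, and Sox18, an endothelial factor, had 92.9 in KO-Linc1548 cells and 262 in WT cells (2.83-fold lower, but a log2 difference of −0.92, inside the limit, with normexp correction). Sox15, a SoxG gene expressed in embryonic stem cells, had 757 in KO-Linc1548 cells and 123 in WT cells (6.14-fold higher). Sox14, Sox30 and Sry were not well above background on either array. The share past the limit was 4 of 9 for the SoxC, SoxD, SoxE and Sox17 set and 4 of 7 for the other Sox genes (3 of 7 with normexp correction), so lower signals occurred in both sets.

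**Figure D4:**
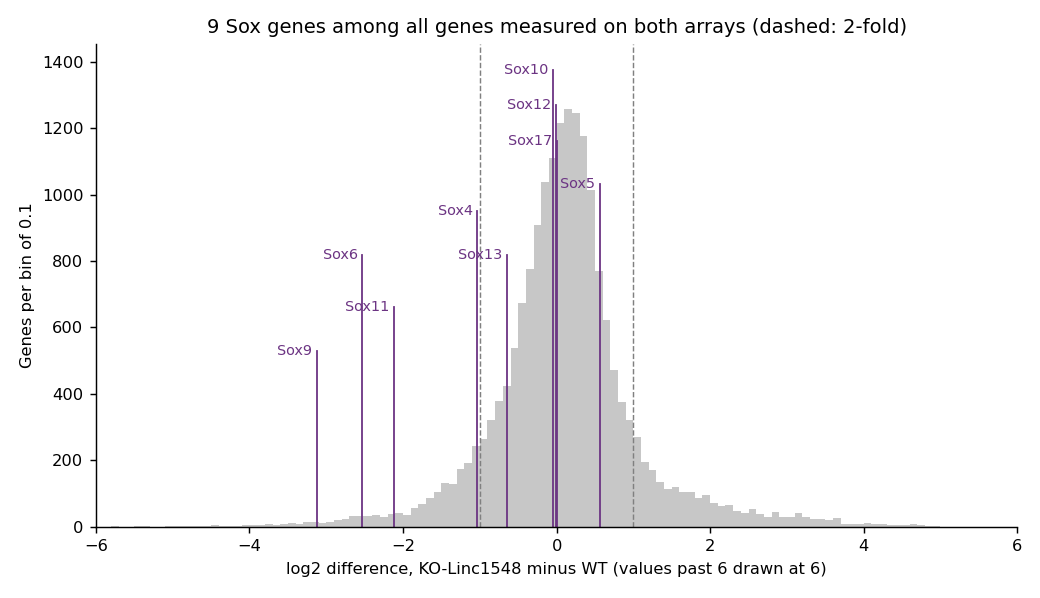
Distribution of the log2 differences (KO-Linc1548 minus WT) of all 18690 genes measured on both arrays, in bins of 0.1, with the 9 measured genes of the SoxC, SoxD, SoxE and Sox17 set marked by lines whose height has no meaning. Sox9, Sox6 and Sox11 lie in the lower tail, below which 0.589%, 1.23% and 2.00% of genes fall, and Sox12, Sox10 and Sox17 lie near the middle.

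Promoter sequence was examined because 4 of the genes were past the limit on the lower side in KO-Linc1548 cells, of which Sox11, Sox4 and Sox6 have promoters in the table used and Sox9 has none there. RefSeq promoters of build GRCm38.p6, from 250 bases before to 50 after each start, were given for 7 of the 10 genes, as 12 promoters of which 6 belong to Sox6. The E-box CAGCTG, searched on both strands, was found in 16.3% of all 32851 promoters and in 3 of the 12 promoters of these genes. These were the promoters of Sox4 and Sox11 and 1 of the 6 of Sox6, which had more windows in which to match. The promoter of Sox8, which had a bound of at least 3.03-fold lower, lacked it, as did those of Sox5, Sox12 and Sox13. Whether the motif bears on the signals was not tested. The stretches are printed along the gene strand with the motif in capitals, and lie on the minus strand at chr13:28953893-28953922, chr12:27342911-27342940 and chr7:115846279-115846308, at 211, 210 and 156 bases before the start.
Sox4 promoter stretch: cagcagaaatctCAGCTGtacttctagccc
Sox11 promoter stretch: gggggacacgcgCAGCTGtgcgcactcgcg
Sox6 promoter stretch: agtcttgttcagCAGCTGacttaagtgttg
The octamer ATGCAAAT, the motif of POU factors, was in 1.74% of all promoters and, of these genes, in Sox12 alone (chr2:152398222-152398253, minus strand, 195 bases before the start), a gene whose signals were nearly equal on both arrays.
Sox12 promoter stretch: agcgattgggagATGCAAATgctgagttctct
The Sox motifs were in 18.7% (ACAAAG) and 12.6% (ACAATG) of all promoters. ACAAAG was in 5 of the Sox6 promoters, and ACAATG in the Sox5 promoter and in 2 of Sox6. The other E-box, CAGATG, was in 17.2% of all promoters and in 2 of Sox6. These are matches of letters in a short window and not measured binding.

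**Figure D5:**
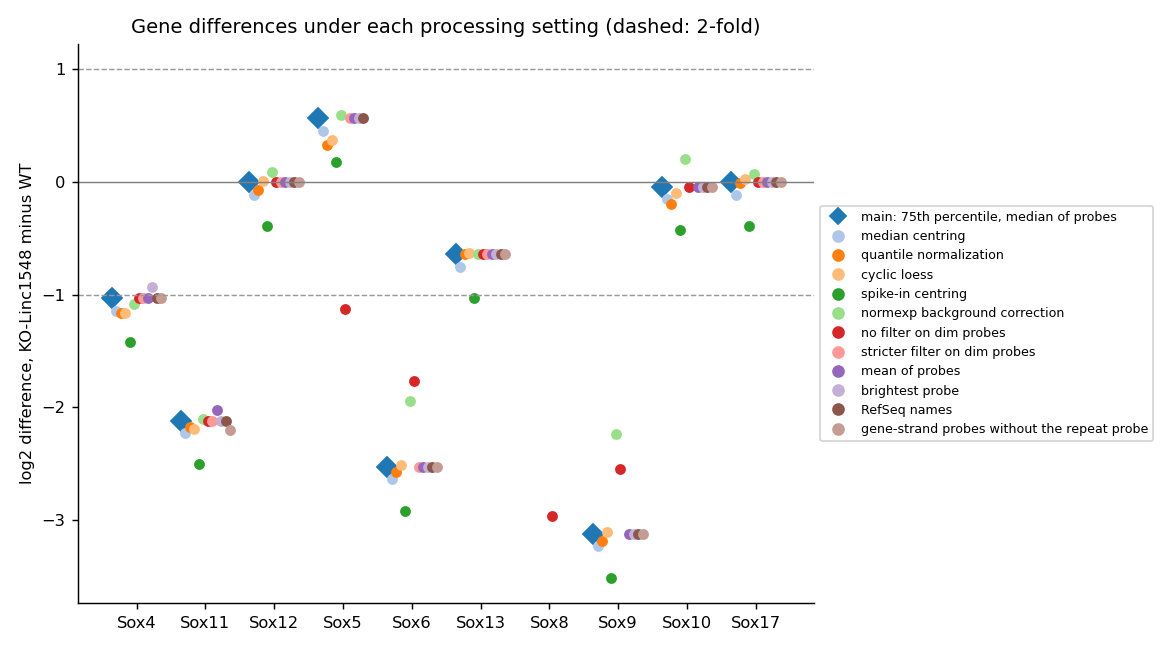
Log2 difference (KO-Linc1548 minus WT) of each of the 10 genes under each way of processing the arrays, with diamonds for the values given in the text; Sox8 has a value without the filter on dim probes alone. Sox9, Sox6 and Sox11 stay below −1 throughout the settings that measure them, Sox4 crosses −1 with the brightest probe (−0.93) and Sox13 with spike-in centring (−1.03). The unfiltered Sox5 value (−1.13) has the opposite sign but comes from probes not well above background on either array.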

How the data were processed

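Total RNA was amplified, labelled with Cy3 and hybridised to single-colour Agilent arrays, 1 of KO-Linc1548 and 1 of WT cells, grouped by the genotype label. The extraction text in the labels describes ground tissue and was not relied on. Per the file headers and the submitters' processing notes, the deposited intensity values come from Agilent Feature Extraction 10.7.1.1, which subtracted background and corrected trends within each array; the arrays were not normalized to each other.

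Control spots and outlier spots (155 on the KO-Linc1548 array, 173 on the WT array) were left out. Log2 processed intensity was centred on each array's 75th percentile (652 on the KO-Linc1548 array and 864 on the WT array) and scaled to 751. A probe was measured where at least 0.5 of its spots were well above background on both arrays; 0 probes were saturated. A bound is the bright signal over the higher of the dim array's lowest signal well above background (30.5 for KO-Linc1548, 21.3 for WT) and the dim probe's own signal. No test was run; the number of arrays limits the precision.

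All 10 genes, every other Sox gene, and up to 2 highest and 2 lowest genes of each context list plus genes with bounds of at least 2-fold are named. A gene that this rule takes is not reported here, though counts include it. The genes and lists were chosen with earlier results of these data known. Alternatives covered centring (median, spike-in), quantile and cyclic loess normalization, normexp correction (offset 50), dim-probe filters, the combining of probes, RefSeq names and, chosen after seeing the data, gene-strand probes without the repeat. The centring and the 2-fold limit were run on simulated data with spot noise alone. That run covers neither differences between cultures nor the bounds, the alternative dim-probe filters or the background correction. Python 3.11.15, pandas 2.3.3, R 4.3.3 and limma 3.58.1 were used.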

Additional observations from a re-analysis of the deposited data

How the results depend on the processing

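Over 11 alternatives, 93 of 96 gene values stayed on the same side of the 2-fold limit or within it. Many of these values could not move, so the tally overstates how stable they are. RefSeq names added 0 probes to the genes and took 0 away, and a gene with a single measured probe keeps its value however probes are combined. The 96 leave out Sox9 and Sox10 under the stricter filter on dim probes, and Sox5 without the repeat probe, where no value remained. Sox5 turned to −1.13 with no filter on dim probes, since 5 more probes then enter. That value comes from probes not well above background on either array, so it gives no direction. Sox13 passed the limit with spike-in centring (−1.03), and Sox4 fell inside it with the brightest probe (−0.93). The median over the measured genes was −1.03 with spike-in centring and −1.08 with no filter, against −0.64. The median with no filter rests in part on that Sox5 value. The count of genes at least 2-fold lower ranged from 3 to 6 and that of genes at least 2-fold higher stayed at 0 in each setting run. The count of 6 was with no filter and includes Sox5 and Sox8. Spike-in centring moved every probe by −0.39 and median centring by −0.11, so positive differences smaller than 0.39 turn negative under the first. Over all genes measured, the share at least 2-fold lower ranged from 5.62% with normexp correction to 15.9% with spike-in centring, and the share at least 2-fold higher was 7.48% with spike-in centring and 12.2% unfiltered. Signal over background limits Sox10, Sox8, the second Sox17 probe and most Sox5 and Sox6 probes, which lay near or below the level called well above background. It also limits Sox9, whose measured probe read 75.4 in KO-Linc1548 cells, below the signal of 100 that the stricter filter asks for. With gene-strand probes and without the repeat probe, an alternative chosen after seeing the data, 4 of 8 genes were at least 2-fold lower (median −0.84). No paired analysis was possible because each group has 1 array.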

Other observations

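Long non-coding RNAs that lie beside Sox genes were looked up after the values of the Sox genes had been seen, and are given as values with no explanation. Sox2ot, the long transcript that overlaps Sox2, was lower in KO-Linc1548 cells at both probes measured on both arrays, while Sox2 itself had a log2 difference of 0.15. Its probe at chr3:34576768-34576827 (mm9) gave a signal of 467 in KO-Linc1548 cells and 4443 in WT cells (9.52-fold lower). The probe at chr3:34579564-34579623 gave 204 in KO-Linc1548 cells and 1041 in WT cells (5.11-fold lower). The probe at chr3:34537493-34537552, on the other side of the Sox2 probe (chr3:34551260-34551316), gave 8.55 in KO-Linc1548 cells, not well above background, and 273 in WT cells, a bound of at least 8.95-fold lower. The Sox6 antisense transcript Sox6os gave 6.13 in KO-Linc1548 cells, not well above background, and 43.9 in WT cells (at least 1.44-fold lower), a bound below 2-fold. Sox5os3 and Sox5it were not well above background on either array.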
